A study of Homo sapiens with 6 samples.

Results

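The ZBTB family of zinc finger transcription factors was examined in SPT5-AID cells with reduced ARMC5. Its members were taken as the protein-coding genes of GENCODE 44 whose symbol is ZBTB followed by a number, without ZBTB8OS, plus BCL6, PATZ1 and HIC2. The family held 44 of the 35810 genes that had a matched transcript, and 41 of the 44 passed the filter for the test.

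The 6 RNA-seq libraries came from SPT5-AID cells, which were made from the colorectal adenocarcinoma line DLD-1 by adding an auxin-inducible degron to SPT5, a transcription elongation factor. Both groups carry the degron, and no label mentions auxin. Cells were transduced with a lentiviral shRNA vector and selected with puromycin, and the shRNA was directed against ARMC5 (shARMC5) or was nontargeting (shNT). Each group had 3 libraries of polyadenylated RNA. The study's methods list more than 1 ARMC5 construct and do not name the one used here, and its statistics section gives N as biological replicates or genes without saying what separates the replicates of these libraries. Nothing in the labels says that they were separate cultures, so the P values measure the spread between these libraries.

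Salmon placed between 26201112 (shARMC5 replicate 3) and 40866478 (shARMC5 replicate 2) reads on transcripts. ARMC5 itself, in counts of its reads per 1000000 reads on genes (CPM, scaled with the TMM factors of edgeR), was at 25.2 ± 1.95 (SD, n = 3) in shNT cells and at 11.9 ± 1.09 (SD, n = 3) in shARMC5 cells. The epithelial markers EPCAM, CDH1, KRT8, KRT18, KRT19, CDX2, VIL1 and CDH17 were above a mean of 1 TPM (a share of transcripts that takes their length into account) in each group, LGALS4 was under 1 TPM, and KRT20 and CDX1 were listed at 0 in all 6 libraries. Between shARMC5 and shNT cells the mean of VIL1 was 3.56 against 8.59 TPM, that of LGALS4 0.366 against 0.860 TPM and that of KRT18 3064 against 2614 TPM, and the part of such shifts in the values of the family was not tested. None of the 13 leukocyte, fibroblast and endothelial markers reached a mean of 1 TPM in either group. In bulk RNA, fewer cells with a transcript and less of it in every cell cannot be told apart.

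ZBTB proteins join a BTB domain near the N terminus, which pairs with another BTB domain and recruits corepressors, to C2H2 zinc fingers near the C terminus that bind DNA. Most known members are repressors that work with the NCOR and SIN3 complexes and histone deacetylases. BTB domains are also found in adaptors of CUL3 ubiquitin ligases, a group that includes ARMC5, but most ZBTB proteins are known as DNA-binding factors.

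The zinc fingers are the part of the sequence that distinguishes these members from other BTB proteins. The MANE Select transcripts of all 44 members were translated, and the spacing of 2 cysteines and 2 histidines that defines a standard C2H2 finger was found in each of them, from 1 finger in ZBTB5, ZBTB9, ZBTB22 and ZBTB43 to 14 in ZBTB41, with a median of 4. Fingers of unusual spacing are not counted by this search. The first finger began after codon 200 in all 44 members. The coding strand of the first finger, 63 bases within 1 coding exon in each case, is printed for the 3 methyl-CpG binding members, for ZBTB37 and for the 3 ZBTB7 paralogs, with the 2 cysteine and 2 histidine codons in capitals. In hg38 these stretches lie at chrX:120254901-120254963 (plus strand, codons 496 to 516) for ZBTB33, chr17:7465809-7465871 (minus strand, codons 311 to 331) for ZBTB4, chr3:141443418-141443480 (plus strand, codons 344 to 364) for ZBTB38, chr1:173885735-173885797 (plus strand, codons 375 to 395) for ZBTB37, chr19:4054021-4054083 (minus strand, codons 384 to 404) for ZBTB7A, chr1:155015702-155015764 (plus strand, codons 348 to 368) for ZBTB7B and chr18:48039950-48040012 (minus strand, codons 366 to 386) for ZBTB7C.
ZBTB33: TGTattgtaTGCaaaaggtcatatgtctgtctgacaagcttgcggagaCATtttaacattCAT
ZBTB4: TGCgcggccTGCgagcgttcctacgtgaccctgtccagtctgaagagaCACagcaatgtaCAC
ZBTB38: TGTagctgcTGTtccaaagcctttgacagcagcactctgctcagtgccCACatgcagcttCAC
ZBTB37: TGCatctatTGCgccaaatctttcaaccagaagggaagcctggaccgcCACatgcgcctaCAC
ZBTB7A: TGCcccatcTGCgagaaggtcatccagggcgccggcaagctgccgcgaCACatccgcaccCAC
ZBTB7B: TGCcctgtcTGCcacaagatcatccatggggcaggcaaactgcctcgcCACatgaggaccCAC
ZBTB7C: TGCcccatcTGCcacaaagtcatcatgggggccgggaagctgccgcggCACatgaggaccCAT
ZBTB33 and ZBTB4 shared 33 of the 63 bases, and ZBTB33 and ZBTB38 shared 25. ZBTB37 shared 33 with ZBTB38, 32 with each ZBTB7 paralog and 27 with ZBTB33. The fingers were taken by position, the first of 3 in ZBTB33, of 5 in ZBTB4 and of 9 in ZBTB38. Whether they correspond to each other was not checked, so these counts cannot decide whether the methyl-CpG binding members stand apart. The ZBTB7 paralogs were closer to each other, with 49 shared bases between ZBTB7A and ZBTB7B, 51 between ZBTB7A and ZBTB7C and 50 between ZBTB7B and ZBTB7C, so the sequences differed at 12 or more of the 63 bases in every pair.

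The levels of the members spanned a wide range in these cells. Over the 6 libraries 15 members had a mean of 10 TPM or more, 23 had a mean from 1 to under 10 TPM, and 6 had a mean under 1 TPM. The median level of the 41 members tested was 7.05 TPM in shNT cells, beside a median of 16.6 TPM for all 13737 genes tested. The highest member was ZBTB7B, known as ThPOK and as a regulator of CD4 T cell fate, with 47.2, 48.3 and 43.2 TPM in the shARMC5 libraries and 50.3, 45.3 and 47.2 TPM in the shNT libraries. ZBTB38, a methyl-CpG binding protein, was next at 37.4, 33.5 and 34.0 TPM against 39.8, 38.0 and 37.0 TPM. ZBTB2, a regulator of the p53 and CDKN1A axis, was the third at 30.6, 31.7 and 29.9 TPM against 29.9, 29.3 and 29.9 TPM. ZBTB7A, a repressor of glycolysis genes also known as LRF, followed at 27.2, 27.3 and 27.9 TPM against 28.4, 27.5 and 26.1 TPM. PATZ1, which interacts with p53, was the fifth at 22.2, 21.7 and 21.0 TPM against 25.6, 24.1 and 22.6 TPM. Ordered by their mean in shNT cells, each of these 5 members was separated from the next by ranges that did not overlap among the 3 shNT libraries. Further down the order neighbours mostly could not be separated, and over the whole order 32 of 43 neighbouring pairs had overlapping shNT ranges. Over protein-coding transcripts only, the means of the 6 libraries were 35.2 TPM for ZBTB7B, 30.7 TPM for ZBTB38 and 30.2 TPM for ZBTB2. On that measure these 3 members stood closer together.

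**Figure D1:**
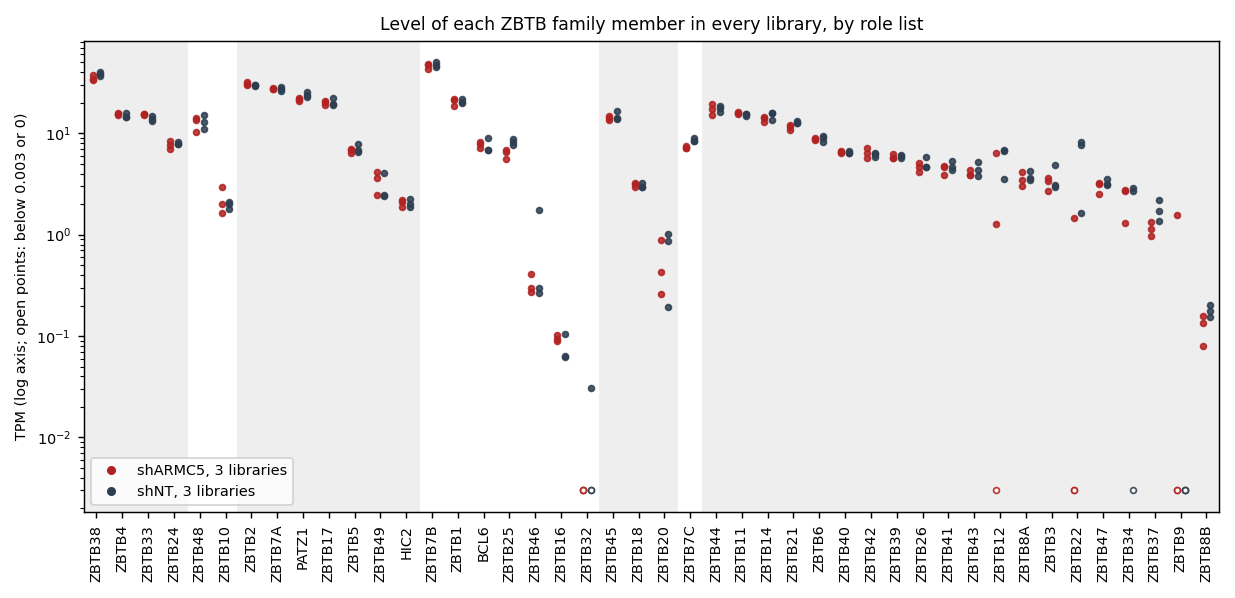
Level of the 44 ZBTB family members in TPM on a log axis, with 3 shARMC5 (red) and 3 shNT (dark blue) libraries per member, ordered within role lists; shaded and white bands mark the lists. ZBTB7B, ZBTB38, ZBTB2, ZBTB7A and PATZ1 lie highest, the 6 members under a mean of 1 TPM lie lowest, and open points are values at 0.

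The members that define blood lineages were uneven in these colorectal cells. ZBTB7B was the highest member of the family, and BCL6, the germinal centre repressor, was at 7.63 TPM (mean of 6 libraries). ZBTB1, a factor of lymphoid development, was at 20.6 TPM. In contrast ZBTB16, known as PLZF in innate-like lymphocytes, had a mean of 0.086 TPM, and all of its reads were on ENST00000541602, a transcript annotated with a retained intron, while its protein-coding transcripts were at 0. ZBTB46, which marks classical dendritic cells, was between 0.266 and 0.411 TPM in 5 libraries and at 1.77 TPM in shNT replicate 2. Its mean was 0.552 TPM, or 0.288 TPM over protein-coding transcripts only, and its exons share up to 383 bases with SLC2A4RG (110 TPM in shNT cells) on the other strand. ZBTB32, a plasma cell and lymphocyte repressor, was listed at 0 in 5 of 6 libraries. ZBTB16, ZBTB32 and ZBTB9 did not pass the filter of at least 10 counts in at least 3 libraries and were not tested.

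Most of the family was at nearly the same level in both groups. Differential expression was tested with the quasi-likelihood test of edgeR over 13737 genes, and a gene with a Benjamini-Hochberg adjusted P value under 0.1 is called. Of the 41 members tested, 1 was called higher in shARMC5 cells, ZBTB33, where 4.44% of all genes tested were called higher. 1 was called lower, ZBTB37, where 3.30% of all genes tested were called lower. The 2 called members stand beside 7.75% of genes called in either direction. The log2 fold change was above 0 for 21 members and below 0 for 20, with a median of 0.00 and a median absolute value of 0.07, beside 0.00 and 0.08 for all genes tested. An unadjusted P value under 0.05 was found for 7 members, 17.1% of them, beside 18.1% of all genes tested. For 33 of the 39 members that were not called, the 95% interval of the log2 fold change lay within 0.5 of 0.

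**Figure D2:**
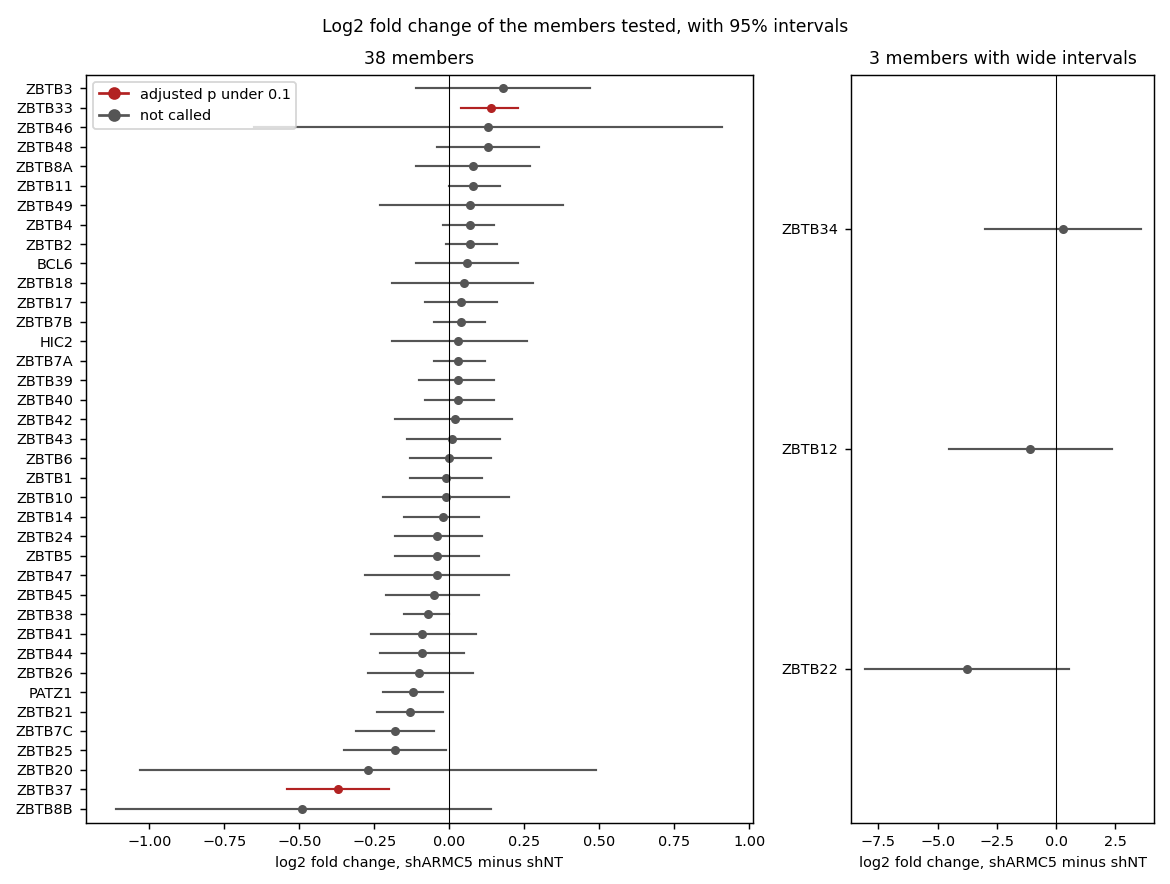
Log2 fold change (shARMC5 minus shNT, points) with 95% intervals (lines) for the 41 members tested; the right panel has a wider axis for the 3 members whose reads jumped between libraries. ZBTB37 and ZBTB33 (red) were called at an adjusted P value under 0.1, and most other members lie near 0.

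ZBTB37, a family member of largely unknown function, was the 1 member called lower. The gene lies on chromosome 1 from 173868082 to 173903547 on the plus strand (ENSG00000185278, GRCh38), and none of its exons overlapped an exon of another gene. Its level was 13.8, 14.7 and 12.6 CPM in the shARMC5 libraries and 19.1, 17.1 and 17.0 CPM in the shNT libraries. All 3 shARMC5 libraries were below all 3 shNT libraries. The log2 fold change was -0.37 (SE 0.08, 95% interval -0.54 to -0.20, adjusted P = 0.0106 from edgeR), a ratio of 0.773. Between 318 and 623 reads per library covered the gene. Nearly all of them were assigned to 1 transcript, ENST00000367701, of 19128 bases in the deposited files, which held 99.0% of the reads of the gene in shARMC5 and 97.3% in shNT cells. In a fit of edgeR over transcripts it was not called (log2 fold change -0.35, SE 0.10, adjusted P = 0.743). In the GENCODE 44 copy of this transcript 7.87% of the bases are coding. With an offset for transcript length the log2 fold change of the gene was -0.60 and its call was lost in edgeR (adjusted P = 0.176), whereas DESeq2 with that offset kept it (adjusted P = 0.0215).

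ZBTB33 encodes Kaiso, which binds methylated CpG pairs and the unmethylated sequence TCCTGCNA. The gene lies on chromosome X from 120250752 to 120258398 on the plus strand (ENSG00000177485), with no exon shared with another gene. Its level was 49.0, 49.2 and 51.1 CPM in the shARMC5 libraries and 46.5, 44.8 and 44.4 CPM in the shNT libraries. The groups did not overlap, and relative to the level of each gene the gap was small beside that of ZBTB37. The log2 fold change was 0.14 (SE 0.04, 95% interval 0.04 to 0.23, adjusted P = 0.0964 from edgeR), a ratio of 1.10. The call stands close to the threshold. It was lost when any 1 of the 6 libraries was left out, with adjusted P values from 0.137 without shNT replicate 1 to 0.270 without shARMC5 replicate 3, and in 15 of 18 alternatives in all, DESeq2 (adjusted P = 0.221) among them.

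Windows at a start of the called members are shown because these were the members called, 1 in each direction. A table of windows of 300 bases from RefSeq (GRCh38.p14), set from 250 bases before a listed start to 50 bases from it on, held 37 of the 44 members. For ZBTB37 the window is chr1:173868130-173868429 and for ZBTB33 chrX:120250562-120250861, both on the plus strand. The start used for ZBTB33, 120250812, is the first base of the gene in RefSeq. The start used for ZBTB37, 173868380, lies 298 bases inside the gene, so the whole ZBTB37 window falls within the bounds of the gene given above. CGCG, searched on both strands of this palindrome, is in capitals.
ZBTB37: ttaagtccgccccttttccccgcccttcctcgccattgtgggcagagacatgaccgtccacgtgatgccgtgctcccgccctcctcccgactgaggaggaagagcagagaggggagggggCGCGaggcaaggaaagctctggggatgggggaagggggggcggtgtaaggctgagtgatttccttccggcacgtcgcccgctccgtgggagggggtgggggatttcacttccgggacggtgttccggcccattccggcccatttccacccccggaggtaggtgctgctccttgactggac
ZBTB33: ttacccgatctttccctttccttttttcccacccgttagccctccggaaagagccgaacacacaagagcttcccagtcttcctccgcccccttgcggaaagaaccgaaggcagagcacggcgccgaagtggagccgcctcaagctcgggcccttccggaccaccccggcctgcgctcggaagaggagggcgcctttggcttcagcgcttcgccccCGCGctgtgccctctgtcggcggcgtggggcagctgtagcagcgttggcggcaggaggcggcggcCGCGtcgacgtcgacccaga
The ZBTB37 window held 21 CG and 1 CGCG, and the ZBTB33 window held 33 CG and 2 CGCG. CGCG was present in the first listed promoter of 26 of the 37 members (70.3%), beside 49.9% of the 35116 promoters of this length, and the median number of CG was 24 in the members and 14 in all promoters. TCCTGCNA, searched on both strands, was in neither window. It was in the first promoter of 2 of 37 members (5.41%), beside 4.69% of all promoters. In these comparisons each member counts with 1 promoter, whereas the 35116 promoters belong to 27305 genes, some of them with more than 1. The differences between these unlike sets were not tested.

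The other members of the methyl-CpG binding list were not called. ZBTB4, a Kaiso-like protein that binds methylated CpG, was at 64.5, 62.4 and 62.4 CPM in the shARMC5 libraries and 62.0, 58.6 and 59.9 CPM in the shNT libraries. The lowest shARMC5 value stood just above the highest shNT value, and the log2 fold change of 0.07 was not called (SE 0.04, 95% interval -0.02 to 0.15, adjusted P = 0.390 from edgeR). ZBTB38 was at 100, 101 and 96.6 CPM against 108, 102 and 104 CPM. Its groups did not overlap either, in the opposite direction, with a log2 fold change of -0.07 (SE 0.04, 95% interval -0.15 to 0.00, adjusted P = 0.278 from edgeR). ZBTB24, a factor required for DNA methylation at satellite repeats, had overlapping groups and a log2 fold change of -0.04 (95% interval -0.18 to 0.11).

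The 2 ZBTB4 transcripts that took its reads went in opposite directions. ENST00000311403, of 5956 bases, had 925, 1186 and 721 reads in the shARMC5 libraries and 580, 772 and 666 in the shNT libraries. ENST00000380599, of 5860 bases, had 1030, 1276 and 853 against 1446, 1127 and 1013 reads. The share of ENST00000311403 in the reads of the gene was 47.3% in shARMC5 and 36.0% in shNT cells. Neither transcript was called, with log2 fold changes of 0.45 (SE 0.13, adjusted P = 0.756) and -0.20 (SE 0.10, adjusted P = 1) in a fit of edgeR over transcripts.

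No member transcript was called. Of 243 transcripts listed for the members 93 were tested, and 0 were called, where 4 of all 51892 transcripts tested (0.00771%) were. At an unadjusted P value under 0.05 there were 7 member transcripts, 7.53% of those tested, beside 4.80% of all transcripts tested. The smallest adjusted P value among them, 0.470, was that of ENST00000375733 of ZBTB17, the MYC partner known as MIZ1, which had 25, 35 and 104 reads in the shARMC5 libraries and 0 in each shNT library. It held 5.40% of the ZBTB17 reads in shARMC5 cells, and the gene as a whole was at 33.2, 30.6 and 32.8 CPM against 31.3, 30.7 and 31.8 CPM. ENST00000405309 of PATZ1 had 46, 17 and 12 reads against 77, 165 and 92 (log2 fold change -2.14, SE 0.64, adjusted P = 0.775). Reads shared between transcripts of a gene are divided by estimation, and the part of this in the values of single transcripts was not tested. ENST00000557385 of ZBTB33 had 104, 466 and 0 reads in shARMC5 and 136, 278 and 15 in shNT libraries, while the gene total was steady.

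The 3 shARMC5 libraries lay wholly above the 3 shNT libraries for 3 members tested, ZBTB33, ZBTB11 and ZBTB4 (7.32% of members, beside 12.5% of all genes tested). They lay wholly below for 6 members, ZBTB37, ZBTB7C, PATZ1, ZBTB21, ZBTB38 and ZBTB22 (14.6%, beside 10.9% of all genes tested). ZBTB11, a regulator of neutrophil development and of mitochondrial genes, was at 59.1, 57.2 and 58.4 CPM against 54.9, 55.4 and 54.4 CPM, a log2 fold change of 0.08 (SE 0.04, 95% interval 0.00 to 0.17, adjusted P = 0.271 from edgeR). Its exons share up to 531 bases with ZBTB11-AS1 on the other strand, and the library kit does not mark strand.

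ZBTB7C, a paralog of ZBTB7A and ZBTB7B, was at 23.0, 23.1 and 25.2 CPM in the shARMC5 libraries and 27.6, 27.1 and 26.0 CPM in the shNT libraries. Its log2 fold change of -0.18 (SE 0.06, 95% interval -0.31 to -0.05) narrowly missed the threshold (adjusted P = 0.112 from edgeR). It was called without shARMC5 replicate 3 (-0.23, adjusted P = 0.0765) and missed the threshold without any 1 of the other libraries. Library size only (adjusted P = 0.0949), genes of at least 1 count (adjusted P = 0.0997) and a replicate block (adjusted P = 0.0804), all in edgeR, also gave a call. ZBTB7A, at 77.9, 77.8 and 82.4 CPM against 78.2, 79.5 and 74.5 CPM, had overlapping groups and a log2 fold change of 0.03 (SE 0.04, 95% interval -0.05 to 0.12, adjusted P = 0.716). ZBTB7B, at 88.6, 79.8 and 83.7 CPM against 79.2, 82.7 and 84.1 CPM, had 0.04 (SE 0.04, 95% interval -0.05 to 0.12, adjusted P = 0.722). The differences between the fold changes of the paralogs were not tested.

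PATZ1 was at 48.6, 46.7 and 46.3 CPM against 52.4, 52.7 and 48.7 CPM, a log2 fold change of -0.12 (SE 0.05, 95% interval -0.22 to -0.02, adjusted P = 0.171 from edgeR). Its highest shARMC5 library was only just under its lowest shNT library. With a replicate block in edgeR PATZ1 was called (-0.12, adjusted P = 0.0971). ZBTB21, which interacts with ZBTB14, was at 35.7, 36.6 and 33.8 CPM against 39.3, 38.2 and 38.5 CPM, a log2 fold change of -0.13 (SE 0.05, 95% interval -0.24 to -0.02, adjusted P = 0.199).

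**Figure D3:**
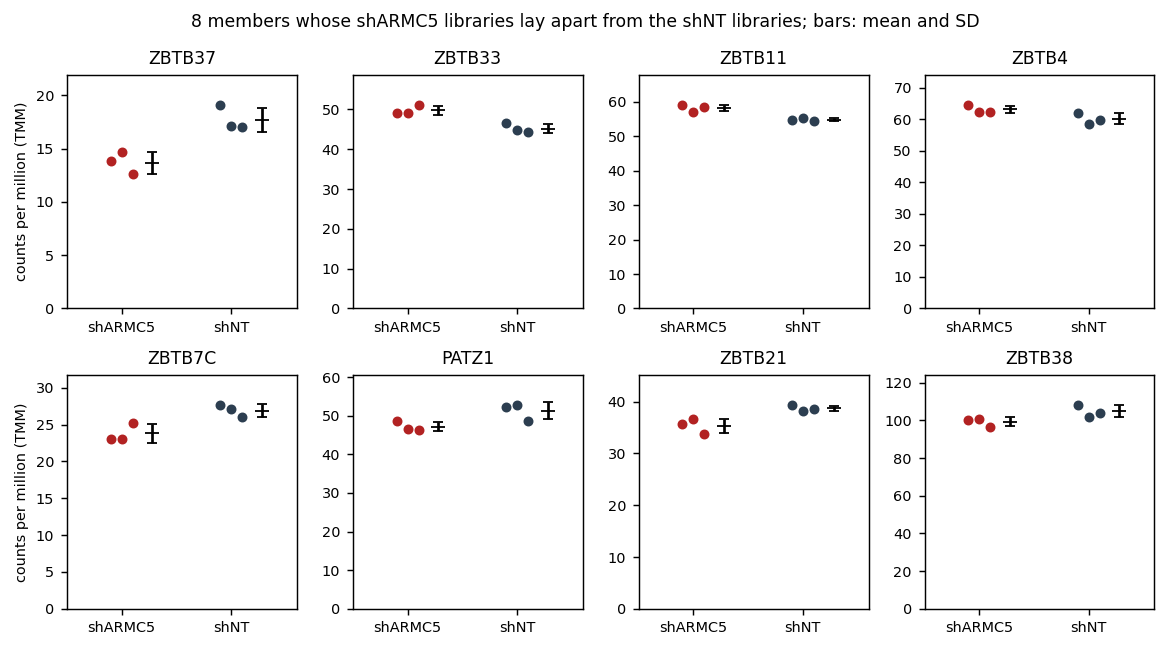
TMM-scaled CPM, on axes that start at 0, for 8 of the 9 members whose groups did not overlap, with 3 shARMC5 (red) and 3 shNT (dark blue) libraries as points and the mean with its SD beside them. Relative to its level the gap between the groups is widest for ZBTB37, and for ZBTB4 and PATZ1 the nearest libraries of the 2 groups almost touch.

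In the MYC, p53 and CDKN1A list none of the 7 members was called, and their log2 fold changes lay between -0.12 (PATZ1) and 0.07. ZBTB2 was at 61.9, 64.7 and 62.4 CPM against 58.2, 59.6 and 62.1 CPM, with 1 shNT library inside the range of the shARMC5 libraries and a log2 fold change of 0.07 (SE 0.04, 95% interval -0.01 to 0.16, adjusted P = 0.379 from edgeR). In the telomere list, ZBTB48, which binds telomeric repeats and is known as TZAP, was at 14.6, 13.9 and 15.2 CPM against 12.5, 13.0 and 14.4 CPM, a log2 fold change of 0.13 (SE 0.08, 95% interval -0.04 to 0.30, adjusted P = 0.423). It was 0.25 over protein-coding transcripts only (adjusted P = 0.224) and -0.02 with an offset for transcript length, in edgeR and in DESeq2. ZBTB10, a second telomere-binding member, had a log2 fold change of -0.01 (95% interval -0.22 to 0.20). In the neural and metabolic list, ZBTB45, a regulator of glial differentiation, was at 18.5, 19.7 and 17.6 CPM against 21.0, 18.4 and 18.5 CPM, a log2 fold change of -0.05 (SE 0.07, 95% interval -0.21 to 0.10, adjusted P = 0.773). ZBTB18, a transcriptional repressor that acts in neuronal development, had 0.05 (95% interval -0.19 to 0.28). ZBTB20, a repressor of the AFP gene in liver, was scarce at a mean of 0.606 TPM, of which protein-coding transcripts held 0.106 TPM, and had a wide interval from -1.03 to 0.49.

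Of the 20 members without a listed role 19 were tested, and ZBTB37 was the 1 called. By TPM the highest of them was ZBTB44, with a mean of 17.4 TPM beside 15.6 TPM for ZBTB11, which had the higher mean of the pair in CPM in shARMC5 cells (58.2 against 52.6) and the lower in shNT cells (54.9 against 55.8). ZBTB44 was at 54.7, 50.8 and 52.2 CPM against 61.4, 50.8 and 55.4 CPM, with overlapping groups and a log2 fold change of -0.09 (SE 0.06, 95% interval -0.23 to 0.05, adjusted P = 0.516 from edgeR). This ran from -0.15 without shNT replicate 2 to -0.01 without shNT replicate 1, and was -0.0005 once average transcript lengths entered as an offset. None of the 5 tested members of the lymphoid and myeloid list was called. Within it ZBTB25, at 16.0, 16.7 and 15.9 CPM against 20.4, 18.5 and 16.3 CPM, had overlapping groups and a log2 fold change of -0.18 (95% interval -0.35 to -0.01, adjusted P = 0.238). Once average transcript lengths entered as an offset it was -0.37 both in edgeR (adjusted P = 0.189) and in DESeq2, where it was called (adjusted P = 0.0801). In edgeR fits with no such offset it ran from -0.10 without shNT replicate 1 to -0.26 without shNT replicate 3. In the latter fit ZBTB25 was called too (adjusted P = 0.0998). ZBTB25 and ZBTB1 lie head to head on chromosome 14 on opposite strands, with up to 373 bases of shared exon, so their reads cannot be fully told apart. ZBTB25 also shares up to 178 exon bases with MTHFD1 on the other strand, which was at 165 TPM in shNT cells beside 20.7 TPM for ZBTB1, and MTHFD1 had a log2 fold change of -0.01. ZBTB1 had a log2 fold change of -0.01 (95% interval -0.13 to 0.11).

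The family has 3 more pairs of neighbours within 100000 bases of each other. ZBTB6 and ZBTB26 lie 2242 bases apart on the minus strand of chromosome 9, with log2 fold changes of 0.00 (95% interval -0.13 to 0.14) and -0.10 (-0.27 to 0.08). ZBTB43 and ZBTB34 lie 22428 bases apart on the plus strand of the same chromosome, and ZBTB43 had 0.01 (-0.14 to 0.17). ZBTB8B and ZBTB8A lie 42740 bases apart on the plus strand of chromosome 1, with -0.49 (-1.11 to 0.14) and 0.08 (-0.11 to 0.27). The value of ZBTB8B, which had few reads, ran from -0.69 without shARMC5 replicate 1 to -0.23 without shARMC5 replicate 2. That of ZBTB26 ran from -0.14 without shARMC5 replicate 3 to -0.04 without shARMC5 replicate 1. No member of these pairs was called.

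In 3 tested members the estimated reads jumped between libraries of the same group, and their fold changes carry little information. ZBTB22 was at 0, 0 and 2.66 CPM in the shARMC5 libraries and 13.3, 2.96 and 15.0 CPM in the shNT libraries, with a log2 fold change of -3.75 (SE 1.58, 95% interval -8.06 to 0.56, adjusted P = 0.334 from edgeR). The value rests on shARMC5 replicate 3, the 1 shARMC5 library with reads. Without it the group is at 0 and the fitted -11.41 (adjusted P = 0.331) is no bound, and leaving out any other library gave -4.20 to -3.04. The highest shARMC5 library stood just under the lowest shNT library. ZBTB12 had 0, 299 and 39 reads against 249, 267 and 122. ZBTB34 had 356, 222 and 304 reads against 392, 377 and 0. Both ZBTB22 and ZBTB12 lie on chromosome 6, from 33314406 to 33317942 and from 31899613 to 31902086, as does the untested ZBTB9 from 33453970, in or near the MHC, a region for which alternative haplotype sequences with transcript identifiers of their own exist. For 2 of the members an unmatched transcript was looked up after these values were seen. ENST00000432044 was picked as the unmatched transcript with the most reads among those of 1875 bases, the length of the ZBTB12 transcript. It had 243, 0 and 180 reads against 63, 0 and 114, and the sums with ZBTB12 were 243, 299 and 219 against 312, 267 and 236. ENST00000373452, of 6528 bases and listed directly after ZBTB34, had 0, 221 and 0 reads against 0, 0 and 306, and the sums were 356, 443 and 304 against 392, 377 and 306. The deposited files name no gene for these transcripts, and GENCODE 44 does not hold their identifiers. The sums were steadier than the reads of the members alone, and the part of the unmatched transcripts in the jumps was not tested.

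**Figure D4:**
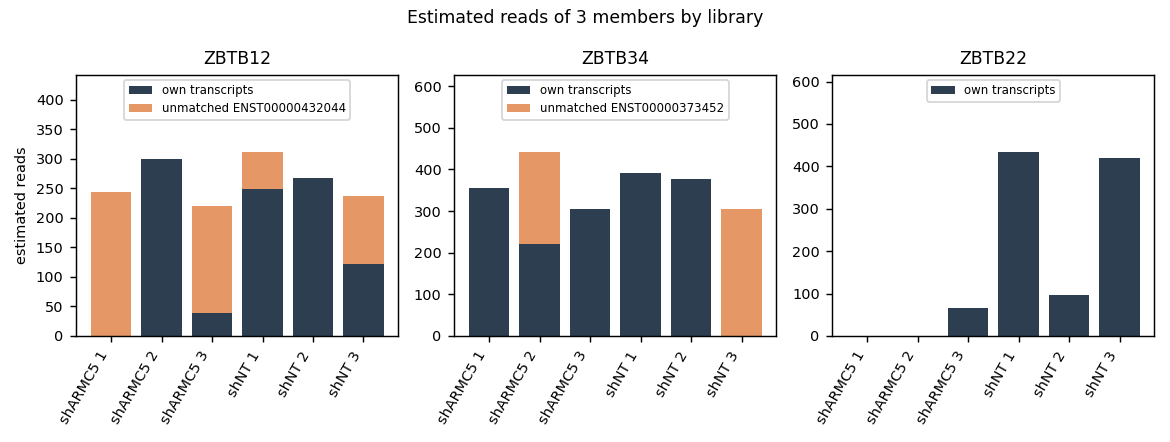
Estimated reads per library (bars, in reads) of ZBTB12, ZBTB34 and ZBTB22, with the reads of 1 unmatched transcript stacked on the first pair. ZBTB12 falls to 0 in shARMC5 replicate 1 and ZBTB34 to 0 in shNT replicate 3, the libraries in which the unmatched transcripts hold 243 and 306 reads.

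The partner list held 32 genes, mostly corepressors and histone deacetylases, with MYC, MAX, CTNND1, CUL3 and FBXL17 beside them. All 32 were tested, 4 were called lower (3.30% of all genes tested were) and 0 higher (4.44% of all genes were), with a median log2 fold change of -0.03 beside 0.00 for all genes. The 4 were NCOR1, SIN3A, CHD4 and CTNND1. NCOR1, the scaffold of a corepressor complex, was at 88.5, 90.6 and 83.3 CPM against 104, 93.9 and 96.9 CPM (log2 fold change -0.17, SE 0.04, adjusted P = 0.0376 from edgeR). SIN3A, the scaffold of a histone deacetylase complex, was at 121, 115 and 113 CPM against 136, 125 and 132 CPM (-0.18, SE 0.04, adjusted P = 0.0100). CHD4, the remodeller of the NuRD complex, was at 401, 397 and 380 CPM against 455, 428 and 428 CPM (-0.15, SE 0.03, adjusted P = 0.00569). CTNND1, the p120 catenin that binds Kaiso, was at 328, 321 and 312 CPM against 350, 345 and 343 CPM (-0.11, SE 0.03, adjusted P = 0.0229). Over the whole list the 3 shARMC5 libraries lay wholly below the 3 shNT libraries for 9 of 32 genes and wholly above for 0, where 10.9% and 12.5% of all genes tested did.

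Of 11 genes known as targets of single members, 9 were tested, 2 were called higher and 0 lower, where 4.44% and 3.30% of all genes tested were. SLC2A3, a glucose transporter gene that ZBTB7A represses, was at 14.4, 15.3 and 14.4 CPM against 6.42, 6.94 and 5.92 CPM (log2 fold change 1.19, SE 0.09, adjusted P = 8.75e-07 from edgeR), while ZBTB7A itself had 0.03. The other ZBTB7A targets on the list, PFKP and PKM, were not called, with 0.03 (SE 0.04) and 0.07 (SE 0.03). CDKN2B, which ZBTB17 regulates with MYC, was low at 1.48, 1.70 and 1.82 CPM against 0.734, 1.26 and 0.607 CPM (0.93, SE 0.30, adjusted P = 0.0972). CDKN1A, a target of ZBTB17 and of several other members, was at 19.8, 20.6 and 18.8 CPM against 17.7, 16.9 and 17.1 CPM, and its log2 fold change of 0.20 was not called (SE 0.07, adjusted P = 0.109). MMP7, a Kaiso target, was at 0 in all 6 libraries.

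Genes of related structure were counted in the same way, beside 4.44% of all genes tested called higher and 3.30% called lower. Of 399 tested ZNF genes, most of them zinc finger genes without a BTB domain, 4 were called higher and 15 lower, and the median log2 fold change was -0.06, with 274 below 0 and 125 above. Among BTB genes without zinc fingers, 2 of 25 KLHL genes and 1 of 8 BTBD genes were called higher, 1 of 7 KBTBD genes was called lower, and 0 of 17 KCTD genes were called either way. The BTB zinc finger genes outside the rule, GZF1, MYNN, ZNF131 and HIC1, were not called, and GZF1 had the largest fall of them at -0.16 (SE 0.06, adjusted P = 0.144). The differences between the family and these groups were not tested.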

How the data were processed

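The members and gene lists were chosen with earlier results of these data known. RNA-seq libraries were made with a kit that does not mark strand, per the labels. The authors used cutadapt 4.2 for trimming and Salmon 1.9.0 with GC correction for quantification. The deposited estimated counts were summed per gene and rounded, and the TPM values deposited by the authors were summed per gene for levels. Identifiers were matched without version to GENCODE 44 (build hg38), and 165533 of 177456 transcripts matched. The unmatched ones held 2.96% to 3.04% of the reads and were left out, so a member whose reads went to them reads low.

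A gene entered the test with 10 or more counts in 3 or more libraries. The test was the quasi-likelihood test of edgeR 4.0.16 (R 4.3.3) with TMM factors and group as the only term, and P values were adjusted by Benjamini-Hochberg over all 13737 genes, with a threshold of 0.1. Transcripts were tested in the same way. Intervals are 95% intervals of the log2 fold change. Simulated data held 13598 genes, 200 of them shifted by a log2 fold change of 1. The test recovered 91.5% of those 200, and 11.6% of its calls were false. Its recovery of smaller shifts, such as the log2 fold changes of -0.37 (ZBTB37) and 0.14 (ZBTB33), was not tested. An exact permutation test of 3 against 3 libraries cannot go below 0.1 and was not used. Depth, 26201112 to 40866478 reads per library, limits the precision of members with few reads.

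Values were given for called members, for members not called whose groups did not overlap and whose log2 fold change was at least 0.2 in size, for the 5 members of highest TPM, for the highest of each role list, and for ZBTB33, ZBTB11 and ZBTB4. Other members, and the unmatched transcripts, were named after their values were seen. Partner and target genes were given where called, and the others named beside them were chosen after their values were seen. Promoters are from RefSeq, and fingers were found in translated GENCODE 44 transcripts with Python 3.11.15 (numpy 2.4.6, pandas 2.3.3, figures with matplotlib 3.10.9).

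The alternatives were the size factors of DESeq2, library size only, a transcript length offset, DESeq2 1.42.0 with and without it, other filters on low counts, a replicate block, an adjusted P value under 0.05, protein-coding transcripts only, unmatched transcripts added to the gene listed before, and each library left out. Keeping unmatched transcripts as features was added after seeing the data.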

Additional observations from a re-analysis of the deposited data

How the results depend on the processing

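ARMC5 kept its direction and its call in all 18 alternatives. ZBTB37 was lower in all 18 and called in 17, with adjusted P values from 0.000268 to 0.176. The lowest came from edgeR over genes of at least 1 count and the highest from the length offset in edgeR. Adjusted P values of the former fit were far smaller for ARMC5 too (1.05e-41, beside 5.32e-07 in the main fit). ZBTB33 was higher in all 18 and called in 3, with adjusted P values from 0.0660 to 0.302. The number of members called higher was 0 instead of 1 with DESeq2 size factors, library size only, either length offset, DESeq2, an adjusted P value under 0.05, protein-coding transcripts only and unmatched transcripts kept as features, and in each of the 6 fits without 1 library. It was 2 with unmatched transcripts added to the gene listed before, where ZBTB40 (0.27, adjusted P = 0.0819) joined. With genes of at least 1 count it stayed at 1, but the member was ZBTB9, whose reads lie in shARMC5 replicate 2 only. The number called lower was 0 with the length offset in edgeR, 2 with library size only and with genes of at least 1 count (ZBTB7C joined), 2 in DESeq2 with the length offset (ZBTB25 joined), and 1 to 2 without 1 library (2 without shARMC5 replicate 3, where ZBTB7C joined, and without shNT replicate 3, where ZBTB25 joined). Among all genes, 1064 were called, 234 and 568 with the length offset in edgeR and DESeq2, 676 under 0.05, 681 with protein-coding transcripts only, 532 with unmatched transcripts as features, and 536 (without shNT replicate 1) to 1074 (without shNT replicate 2) without 1 library, 583 without shARMC5 replicate 2 and 675 without shNT replicate 3. The cause of these shifts was not tested. No member transcript was called with library size only, transcripts of at least 1 count, a replicate block, a threshold of 0.05 or any 1 library left out.

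The labels do not say whether replicate numbers pair the samples. Deviations from the group means correlated at -0.0499, -0.047 and 0.0762 between same-numbered libraries. Between libraries of different numbers they correlated at -0.152 to 0.173. Such values over all genes cannot decide whether part of the genes shared a replicate effect. With a replicate block 1766 genes were called and 3 members were called lower, PATZ1 and ZBTB7C beside ZBTB37.

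Members that were not called changed sign in 46 of 702 values, 20 members in all. With the length offset in edgeR and in DESeq2 these were ZBTB1 (0.0032 and 0.0022), ZBTB10 (0.17 in both), ZBTB3 (-0.15 in both), ZBTB43 (-0.12 in both), ZBTB46 (-1.07 and -1.17), ZBTB48 and ZBTB7B (-0.02 in both) and ZBTB8A (-0.07 in both). With library size only these were ZBTB43 (-0.0015) and ZBTB6 (-0.01), with protein-coding transcripts only ZBTB6 (-0.0014), and with unmatched transcripts added ZBTB10 (0.01). Without 1 library the log2 fold change ran from -0.02 to 0.14 for HIC2, -0.04 to 0.03 for ZBTB1, -0.11 to 0.07 for ZBTB10, -0.06 to 0.01 for ZBTB14, -0.47 to 0.26 for ZBTB20, -0.11 to 0.01 for ZBTB24, -0.28 to 0.72 for ZBTB34, -0.02 to 0.06 for ZBTB39, -0.07 to 0.09 for ZBTB42, -0.03 to 0.05 for ZBTB43, -0.10 to 0.02 for ZBTB45, -0.12 to 0.48 for ZBTB46, -0.14 to 0.07 for ZBTB47, -0.01 to 0.16 for ZBTB49, -0.09 to 0.01 for ZBTB5, -0.05 to 0.04 for ZBTB6 and -0.01 to 0.07 for ZBTB7B.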
